A study of Homo sapiens with 8 samples.

Results

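The IKAROS peak list of 697 cells, an established human pre-B leukaemia cell line, held 53948 of the 159806 peaks in the 7 antibody lists of this ChIP-seq series, and every row of it was taken. It came from 1 chromatin library made with an Abcam antibody against IKAROS (ab26083) and was called over input DNA, for which the series holds 1 library made with no antibody. AIOLOS, MTA2, Mi2, HDAC2, OCT2 and OCAB had 1 library each from the same line. All cells grew in medium with 10% serum, with no treatment in the labels, and each library was amplified over 15 PCR cycles to fragments of about 250 bp and read on a HiSeq 2500. With 1 library per antibody and 1 leukaemia line there was no replicate check, no test between proteins was made, and the 95% intervals cover counting error only. Peaks of 1 library are not replicates.

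IKAROS is a zinc-finger transcription factor that lymphocytes need from their earliest precursors on, and its gene is often deleted or mutated in B-cell leukaemia. It binds DNA as a dimer, alone or with its close relative AIOLOS. Both can recruit NuRD, a complex that joins the nucleosome remodeller Mi2 to the histone deacetylase HDAC2, with MTA2 as a scaffold subunit. OCT2 recognises octamer DNA in lymphoid cells, and OCAB, a coactivator of B cells, joins octamer factors on it. The lists hold no expression values, so neither the cell type nor the antibody could be checked against marker genes. Coordinates are on hg19. The annotation at hand was on a later build, and genes and sequences under the peaks were therefore not read.

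The height of a peak is its tag number per 10 M tags of the library. The steps between low heights gave a depth of 23.4 M tags for IKAROS, so that 1 tag was worth 0.428 units of height, and the ratio of the deposited columns gave 21.3 M tags for the input. Peaks held 4412593 tags, 18.9% of the library. Every peak was 272 bp wide apart from 1 at the start of a contig.

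A partner was scored where a peak of another list overlapped an IKAROS peak by at least 1 bp. Over the whole IKAROS list, 60.7% of peaks overlapped AIOLOS, 40.3% MTA2, 21.7% HDAC2, 11.5% OCT2, 8.55% Mi2 and 4.87% OCAB. Seen from the other side, IKAROS peaks overlapped 85.9% of the AIOLOS list, 75.5% of MTA2, 72.5% of HDAC2, 76.5% of OCT2, 44.8% of Mi2 and 59.1% of OCAB. The lists differ in length, depth and calling limits, so these shares do not rank the partners.

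Most IKAROS peaks were low and a few were very high. The lowest height was 5.13, which is 12 tags and was shared by 17 peaks. The median was 20.5 (95% interval 20.1 to 20.5), which is 48 tags. The 95th percentile was 106.1, the 99th percentile 219.4 and the highest peak 4438.5, 216.5 times the median. A height of 100 was reached by 3010 peaks (5.58%), a height of 500 by 62, a height of 1000 by 17 and a height of 2000 by 8.

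The upper end took a large part of the signal. The highest 1% of peaks (539 peaks) held 10.9% of all tags in peaks, the highest 0.1% (54 peaks) held 3.11%, and the 10 highest alone held 1.43%. The highest 10% of peaks held 39.7% of the tags, against 2.10% in the lowest 10%. Peaks were put in 10 equal classes by height for what follows, from class 1 (the lowest) to class 10 (the highest).

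**Figure D1:**
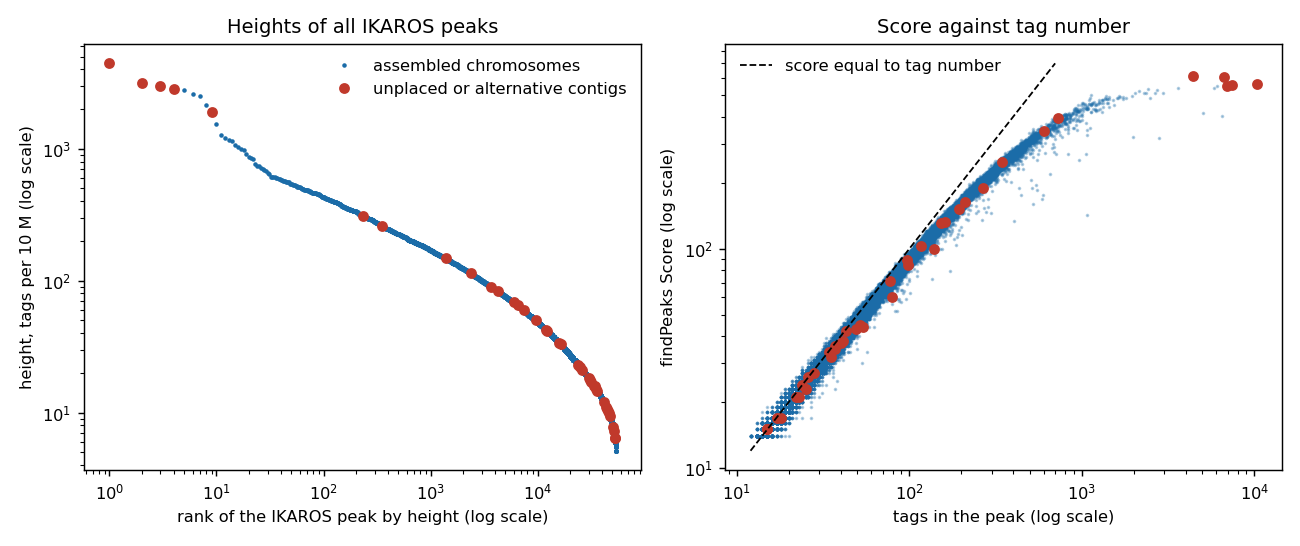
Left, height of every IKAROS peak (tags per 10 M) against its rank, both axes logarithmic; right, the findPeaks Score of every peak against its tag number, both axes logarithmic, with a dashed line where they are equal. Red points are the 39 peaks on contigs outside the assembled chromosomes (labelled unplaced or alternative). Of them, 5 are among the 10 highest, and the score flattens below 611 while tag numbers go on to 10377.

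Of the 10 highest peaks, 5 lay on contigs outside the assembled chromosomes. The highest of all was at chr17_gl000205_random:87280-87552, with a height of 4438.5 (10377 tags), 24 control tags, a focus ratio of 0.802 and an overlapping AIOLOS peak of height 4889.7. Its neighbours on the same contig, at 85200-85472 and 86238-86510, reached 2982.7 and 2843.7. The chr7_gl000195_random peak at 31726-31998 reached 3165.7, and the chrUn_gl000220 peak at 7522-7794 reached 1885.2. The 3 peaks on the chromosome 17 contig lay next to each other, about 1 kb apart, and carried 22 to 31 control tags each, against a median of 3 over the whole list.

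The other 5 lay on assembled chromosomes. The peak at chr4:7865712-7865984 had a height of 2783.8 over 3 control tags, 1972-fold over input. The peak at chr8:28747485-28747757 had a height of 2590.9 over 10 control tags, and the peak at chr4:185886436-185886708 a height of 2492.1 over 2 control tags. These 3 were below the median of 23 control tags over the 10 highest peaks, and the chromosome 8 peak was above the class 10 median of 5. The peak at chr11:62608997-62609269 had a height of 2160.7 over 74 control tags, 62.0-fold over input, and the peak at chr11:76155742-76156014 a height of 1550.8 over 13. The chr11:62608997-62609269 peak was the one among the 10 that overlapped an OCT2 peak (height 178.9).

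Contig peaks were few. In all, 39 peaks lay on 14 contig names, with a median height of 23.1, against 20.5 on chromosomes 1 to 22 and X. They made up 7 of the highest 1% and held 0.90% of all tags in peaks. Their median control tag number was 5.

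The findPeaks Score is the caller's own measure of a peak and followed height closely up to the upper end. Scores ran from 14 to 611 with a median of 45. Across all 53948 peaks the rank correlation of height and score was 0.997, and within the highest 1% it was 0.862; both come from the same tags of 1 library, and the values describe these peaks only. The number of tags per unit of score was 1.00 at the median of class 1 and 1.31 at that of class 10. It was 1.92 in the highest 1%, 3.35 in the highest 0.1% and 11.6 in the 10 highest peaks. At 2 or more tags per unit stood 237 peaks, of which 231 were in the highest 1%.

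Score and height therefore ranked the very top differently. The chr4:7865712-7865984 peak, rank 5 by height with 6509 tags, had a score of 404, while the chrUn_gl000220 peak with 4408 tags had the highest score of the list, 611. Among lower peaks the widest differences in rank were at chr7:99013163-99013435 (height 22.7, score 30), chr17:20435214-20435486 (height 24.4, score 34) and chr17:19091285-19091557 (height 15.8, score 23). These 3 had focus ratios of 0.927 to 0.983, and the last was 2647-fold over its surroundings, the highest such local fold of the list.

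The clonal fold, the caller's comparison of tag number with the number that distinct positions would give, moved along with this. Its median fell from 0.91 in class 1 to 0.81 in class 10, 0.68 in the highest 1% and 0.49 in the 10 highest peaks. Its part in the gap between tags and score was not tested.

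The focus ratio, the share of tags lying where a single bound point would put them, was high throughout and differed little with height. Its median was 0.773 over all peaks, and the middle of the list ran from 0.712 at the 25th to 0.828 at the 75th percentile. The median was 0.760 (0.760 to 0.762) in class 1 and 0.800 (0.797 to 0.802) in class 10. Class 9 had 0.780 (0.778 to 0.782), so the step into class 10 was as large as the difference between classes 1 and 9. The median reached 0.838 in the highest 1% and 0.856 in the highest 0.1%, and it was 0.771 in the 10 highest peaks.

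**Figure D2:**
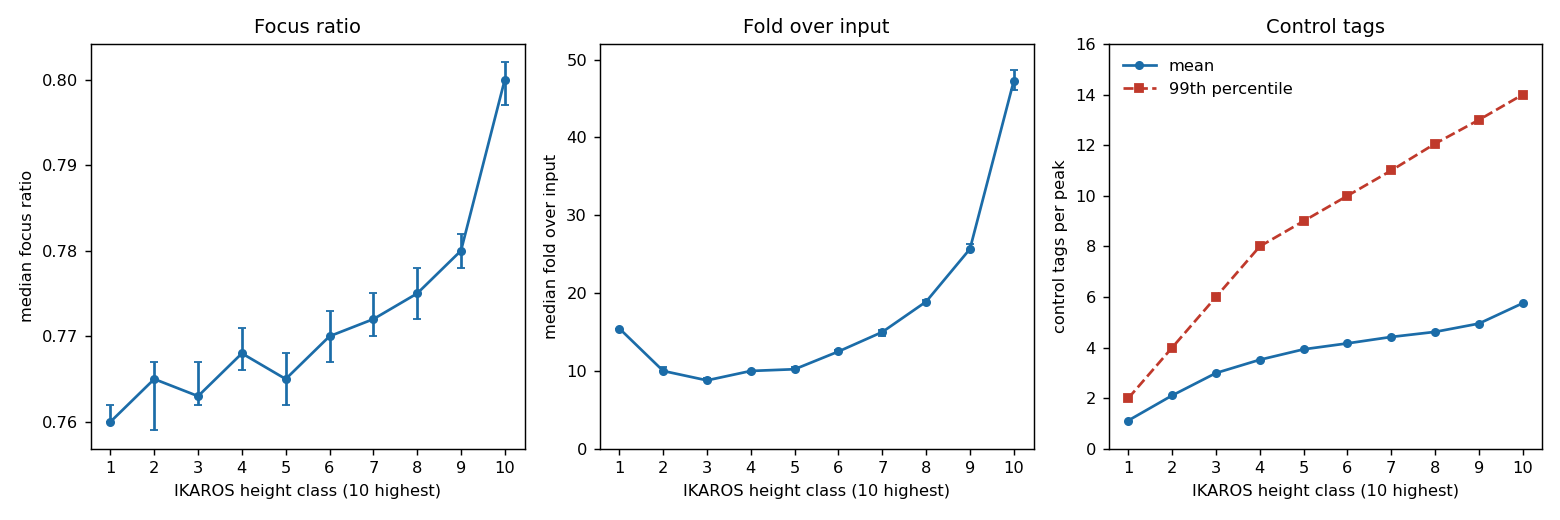
Median focus ratio, median fold over input, and mean and 99th percentile of control tags per peak, in 10 equal classes of IKAROS peaks by height (1 lowest, 10 highest); bars are 95% order-statistic intervals of the median, and the focus axis does not start at 0. Focus ends at 0.800, fold has its lowest median of 8.79 in class 3 and its highest of 47.3 in class 10, and mean control tags rise from 1.12 to 5.75.

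Some high peaks were unfocused. The lowest focus ratios in the highest 1% were at chr7:976252-976524 (0.539, height 322.5), chr18:13673503-13673775 (0.543, height 356.3) and chr13:112963392-112963664 (0.562, height 455.5). Each had another IKAROS peak between 613 and 1617 bp away. Their local folds were 8.56, 7.36 and 4.03, against a median of 24.3 in class 10.

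Control tags are the input tags found under a peak, each counted once and not scaled, with 0.5 written where there was none. The median was 3, and 3280 peaks (6.08%) had no control tag. At least 10 control tags lay under 1456 peaks (2.70%), at least 20 under 14 and at least 50 under 4. Input under IKAROS peaks was thus sparse nearly everywhere, and a fold over input rested on a handful of control tags in most rows.

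Control tags were more numerous under higher peaks. Their mean was 1.12 per peak in class 1, 3.93 in class 5 and 5.75 in class 10. The share of peaks with no control tag fell from 25.3% (24.2 to 26.5) in class 1 to 1.13% (0.881 to 1.45) in class 10. No peak of class 1 had more than 3 control tags, whereas class 10 reached 143. The list holds no peak under 4.01-fold over input and none with a p-value over input above 8.32e-10, so a low peak could be listed only over few control tags. Across all 53948 peaks the rank correlation of height and control tags was 0.519, which describes 1 list and shares that limit.

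Fold over input did not follow height at the lower end. Its median was 15.2 over all peaks. It was 15.4 in class 1, fell to 8.79 in class 3 and rose to 47.3 (46.1 to 48.6) in class 10. Of all peaks, 81.7% were at least 8-fold, 36.8% at least 20-fold and 3.01% at least 100-fold over input. Class 1 had 1 control tag per peak at the median and class 3 had 3. Ranked by fold in place of height, the highest class had 2 control tags at the median in place of 5.

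The 3 peaks with the most control tags were high peaks with a fold over input near the floor of the list. The peak at chr17:41400145-41400417 had 143 control tags under a height of 422.1, 6.27-fold over input. The peak at chr2:92318559-92318831, next to the centromere, had 135 under a height of 458.1 and was 7.21-fold over input. Its focus ratio was 0.974, its clonal fold of 1.86 was the highest of the list, and it overlapped no peak of any other list. The peak at chr17:41466062-41466334 had 80 under a height of 233.1. Both chromosome 17 peaks overlapped an AIOLOS peak and none of the other 5 lists.

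IKAROS peaks lay close together. The distance from a peak centre to the nearest other IKAROS centre had a median of 8249 bp (8123 to 8336) and a minimum of 456 bp. Within 1 kb of another peak were 8.11% of all peaks, within 5 kb 34.3%, within 10 kb 56.1% (55.7 to 56.6), within 25 kb 79.6% and within 100 kb 96.5%.

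Spacing differed with height. Another IKAROS peak lay within 10 kb of 36.1% (34.8 to 37.4) of class 1, 59.5% of class 5, 64.8% (63.5 to 66.0) of class 9 and 63.1% (61.8 to 64.4) of class 10. Classes 9 and 10 did not differ beyond their intervals. Peaks over 100 kb from any other had a median height of 13.7, and 23.2% of them were in class 1.

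With successive centres at most 10 kb apart joined into runs, the list fell into 35318 runs. Of these, 23658 were single peaks and 11660 were clusters of at least 2, which together held 30290 peaks. Clusters of at least 5 numbered 700 and clusters of at least 10 numbered 11. The median height was 17.1 for single peaks, 21.4 in pairs, 24.0 in clusters of 3 to 4 and 28.2 in clusters of 5 to 9. It was 25 over the 132 peaks in clusters of at least 10. Local fold went the other way, from 15.3 for single peaks to 10.0 in pairs, 8.06 in clusters of 5 to 9 and 7.59 in the largest clusters.

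**Figure D3:**
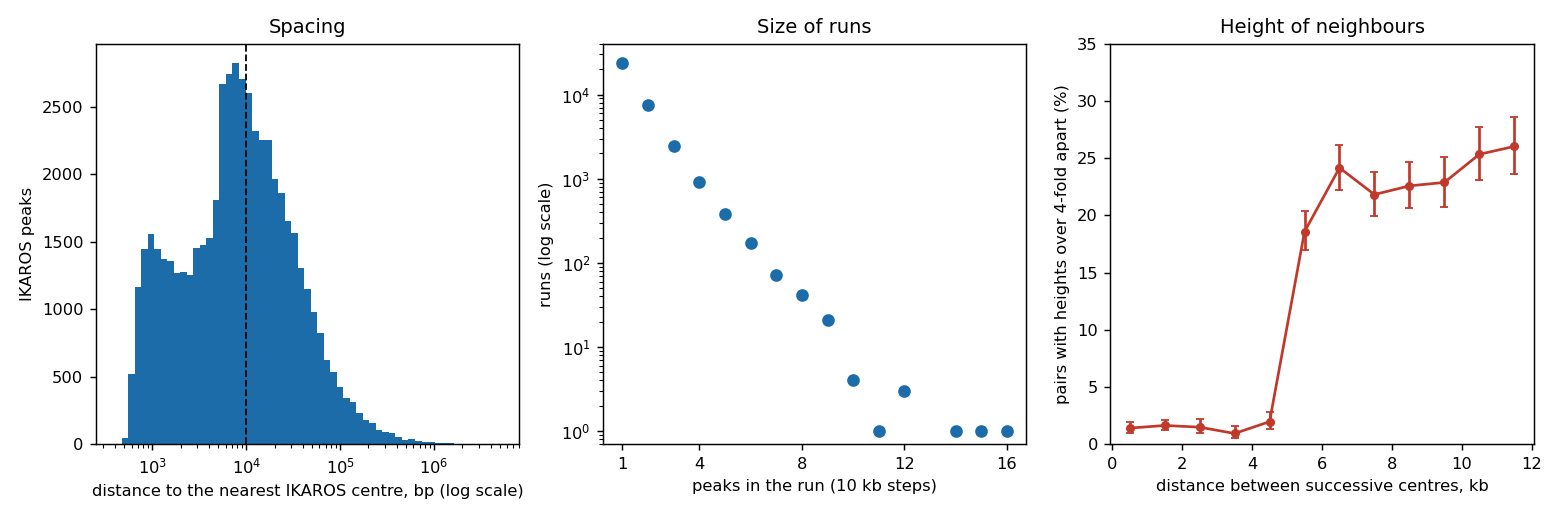
Left, number of IKAROS peaks by distance to the nearest other IKAROS centre (bp, logarithmic axis; dashed line at 10 kb); middle, number of runs by the number of peaks they hold, logarithmic vertical axis; right, share of successive peak pairs whose heights are over 4-fold apart by distance in 1 kb steps, with Wilson 95% intervals. The share is 1.96% at 4 to 5 kb and 18.6% at 5 to 6 kb.

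The 3 clusters with the most peaks had no exceptional peak in them. The cluster at chr19:2255574-2335802 held 16 peaks over 80.2 kb, with heights from 14.1 to 142.4 and a summed height of 642.2. Of its peaks, 11 overlapped AIOLOS, 8 MTA2, 4 HDAC2 and 1 OCT2. The cluster at chr5:131714334-131781819 held 15 peaks with heights from 8.13 to 119.8, of which 9 overlapped AIOLOS and 7 MTA2. The cluster at chr7:38352489-38407985 held 14 peaks with heights from 10.7 to 53.9, of which 6 overlapped AIOLOS and 4 MTA2, and 8 had no partner. Over the whole list AIOLOS overlapped 60.7% of peaks, MTA2 40.3% and no partner 30.3%, and counts this small do not set the clusters apart. The highest of their peaks ranked 1487th by height.

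Neighbouring peaks had like heights up to a sharp distance. Among the 9919 successive pairs less than 5 kb apart, the higher peak was 1.53 times the lower at the median and 1.49% of pairs (1.27 to 1.75) were over 4-fold apart. Among the 8711 pairs 5 to 10 kb apart, the median ratio was 2.12 and 21.9% (21.0 to 22.8) were over 4-fold apart. The rank correlation of the heights in a pair was 0.634 in the first set and 0.128 in the second, across pairs of 1 library that can share a peak.

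The change sat at 5 kb. In 1 kb steps, the share over 4-fold apart was 1.4%, 1.63%, 1.48%, 0.930% and 1.96% up to 5 kb, and then 18.6%, 24.2% and 21.8%. The nearest peak lay 4 to 5 kb away for 2257 peaks and 5 to 6 kb away for 2980. The highest ratio within a pair was 9.09 below 5 kb and 194.7 between 5 and 10 kb. Local fold, the ratio to the surrounding region, changed at the same distance: its median was 7.57 where the nearest peak was less than 5 kb away and 13.0 where it was 5 to 10 kb away. The IKAROS list holds no local fold below 4. The header of the HDAC2 list records a minimum of 4-fold over a surrounding region of 10 kb, which is 5 kb to each side, and the sources used here do not give the settings of the IKAROS list. A rule of that kind would drop a low peak beside a high one. Its part in the likeness of neighbours and in the counts of near neighbours was not tested.

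AIOLOS, the other IKAROS-family factor, had a listed peak at nearly all high IKAROS peaks and at few low ones. Its share rose from 8.49% (7.78 to 9.26) of class 1 through 58.0% of class 5 to 96.9% (96.4 to 97.3) of class 10, a difference of 88.4 points (87.5 to 89.3). The rise was over by class 9, with 96.3%: the last step was 0.556 points (-0.127 to 1.24). The height of the overlapping AIOLOS peak went on rising, from a median of 11.2 in class 1 to 43.0 in class 9 and 84.0 in class 10. The distance between the centres fell from 44.5 bp to 19 bp. AIOLOS peaks below the calling limits of their list are absent from these shares and medians. The median over the whole AIOLOS list was 23.7, above that of the AIOLOS peaks at class 1.

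The NuRD subunits rose with IKAROS height by different amounts and mostly at the upper end. MTA2 went from 7.95% of class 1 to 90.9% (90.1 to 91.6) of class 10, a difference of 82.9 points (81.8 to 83.9). HDAC2 went from 1.93% to 67.1% (65.8 to 68.3), and 21.9 points (20.1 to 23.7) of that came in the last step. Mi2 went from 1.85% to 27.2% (26.0 to 28.4). All 3 subunits had listed peaks together at 0.241% of class 1, 0.927% of class 5, 8.92% of class 9 and 21.99% of class 10. Over the whole IKAROS list this share could not exceed the 8.55% that overlapped Mi2. The size of these differences depended on the rule: with centres within 100 bp in place of overlap Mi2 differed by 13.7 points, and with the 4000 highest peaks of each list MTA2 differed by 44.7 and HDAC2 by 41.7. With at least 8-fold over input in every list Mi2 differed by 10.8 and HDAC2 by 34.0 points.

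Among listed partner peaks, MTA2 peaks grew higher along the way and Mi2 and HDAC2 peaks less so. Peaks below the calling limits of a list are absent from these medians, and limits and depth differ between lists. The rises therefore do not rank the subunits. The median MTA2 height at overlapping peaks went from 8.32 to 31.5, 3.79-fold, that of HDAC2 from 11 to 21.1 and that of Mi2 from 11.3 to 18.9. MTA2 centres lay 29 bp from the IKAROS centre at the median in class 10 and HDAC2 centres 48 bp. Mi2 centres lay 91 bp away, and between 91 and 116.5 bp in every class.

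**Figure D4:**
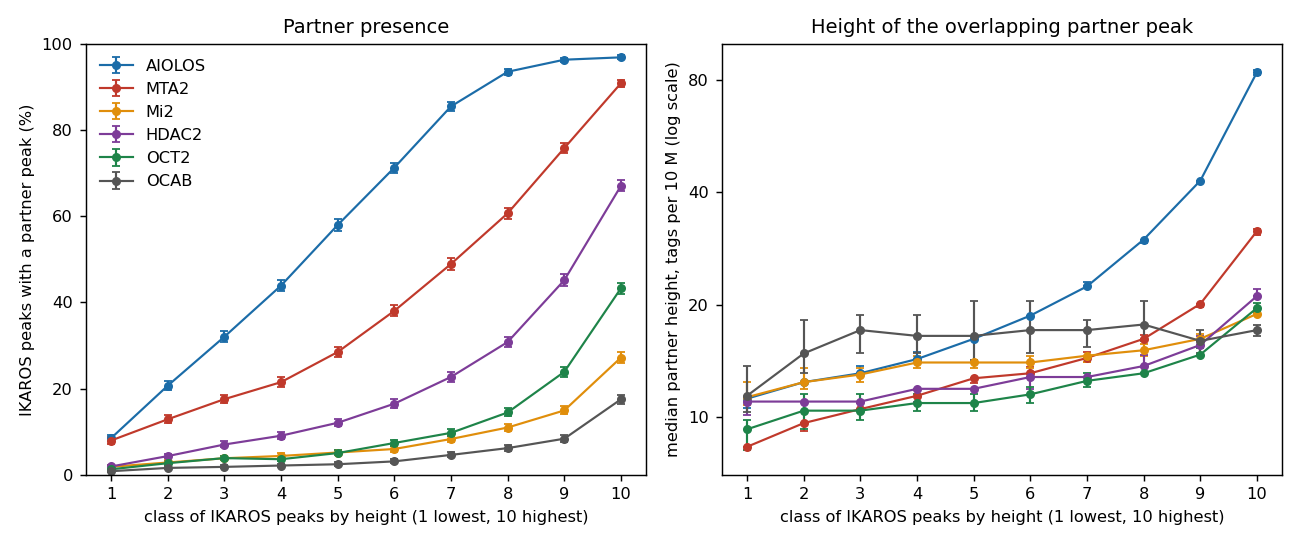
Left, share of IKAROS peaks that overlap a peak of each other list, by class of IKAROS height, with Wilson 95% intervals; right, median height of the overlapping partner peak (tags per 10 M of that library, logarithmic axis) with 95% order-statistic intervals. AIOLOS reaches 96.9% and MTA2 90.9% in class 10. Among listed partner peaks the median OCAB height is 11.4 in class 1 and 17.1 in class 10. Depth and calling limits differ between lists, so the rises do not rank the partners.

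The shares of OCT2 and OCAB also rose late. Their lists were the shortest, with 8129 and 4440 peaks, which limits how many IKAROS peaks they could overlap. Over the whole IKAROS list OCT2 overlapped 11.5% of peaks and Mi2, with 10303 listed peaks, 8.55%. These shares do not rank the partners. OCT2 overlapped 1.28% of class 1, 23.9% of class 9 and 43.3% (42.0 to 44.6) of class 10. OCAB overlapped 0.834% of class 1, 8.38% of class 9 and 17.5% (16.5 to 18.6) of class 10. The differences between classes 10 and 1 were 42.0 and 16.7 points, and 26.6 and 10.8 with at least 8-fold over input in every list. OCAB peak height was nearly level, with medians between 14.8 and 17.7 from class 2 on, and 11.4 (10.3 to 13.7) in class 1.

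Within the upper end the OCT2 share was highest in the highest 1%, without a difference beyond counting error from the highest 0.1%. It overlapped 57.0% (52.7 to 61.1) of the highest 1%, 46.3% (33.7 to 59.4) of the highest 0.1% and 1 of the 10 highest peaks, 10% (1.79 to 40.4). The 10 highest peaks all overlapped AIOLOS, MTA2 and HDAC2, 8 overlapped Mi2 and 2 OCAB. Of these 10 peaks, 5 lay on contigs, and the median over the 10 was 23 control tags, against 3 over the whole list. The part of the input in their overlaps was not tested. None of these 10 peaks had all 6.

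The number of partners summed this up. The mean was 0.223 of 6 in class 1, 1.11 in class 5 and 3.43 in class 10. Peaks with no partner made up 81.7% (80.6 to 82.7) of class 1 and 0.389% (0.255 to 0.595) of class 10, which is 21 peaks. Peaks with all 6 numbered 0 in each of classes 1 to 4, 1 in class 5, 73 (1.35%) in class 9 and 288 (5.34%) in class 10. Over the whole IKAROS list their share could not exceed the 4.87% that overlapped OCAB. Most peaks of class 10 lacked at least 1 partner.

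Single regions departed from this pattern. After the pericentromeric chromosome 2 peak, the highest without any partner were at chr3:195497839-195498111, with a height of 279.3 over no control tag, and chr17:7143085-7143357, with a height of 214.7 over 7 control tags. The highest with all 6 partners, outside the 10 highest, were at chr4:51627-51899 (1135.9), chr8:130577945-130578217 (830.1) and chr8:140789292-140789564 (647.1). At chr4:51627-51899 the partner heights were 721.5 for AIOLOS, 271.0 for MTA2, 123.7 for HDAC2, 91.7 for OCT2, 54.6 for Mi2 and 41.6 for OCAB. The lowest with all 6 were at chr20:8112494-8112766 (23.1), chr18:8052168-8052440 (22.7) and chr19:18793937-18794209 (19.7), all near the median height of the list.

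In class 10, the 167 peaks with no AIOLOS peak were less focused than the 5227 with one. Their median focus ratio was 0.736 against 0.800, their median local fold 16.9 against 24.6 and their median height 124.0 against 105.6. MTA2 overlapped 119 of them, 71.3% (64.0 to 77.6), against 91.5% (90.7 to 92.2) of the peaks with AIOLOS.

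Partner presence also moved with the control tags. In class 5, AIOLOS overlapped 78.1% of the 210 peaks with no control tag and 42.8% of the 1979 with at least 5, a difference of -35.3 points (-40.8 to -28.8). For MTA2 the shares were 40.5% and 22.6%, and for OCT2 9.05% and 2.93%. HDAC2 had 12.4% and 10.2%, which did not differ beyond counting error (-2.17 points, -7.47 to 1.87). Of classes 3 to 10, HDAC2 differed beyond counting error in class 8, with 34.2% and 24.1% (-10.2 points, -18.2 to -2.82). In class 10 AIOLOS went the other way, with 91.8% of 61 peaks and 96.9% of 3355 (5.07 points, 0.378 to 14.7). MTA2 there did not differ beyond counting error (5.19 points, -1.69 to 16.2). For Mi2, HDAC2, OCT2 and OCAB the difference was negative in class 10 as in class 5. In class 10 it was beyond counting error for Mi2 (-27.0 to -3.15) and OCAB (-22.05 to -0.728). It was not for HDAC2 (-21.3 to 0.13) and OCT2 (-22.4 to 2.16).

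**Figure D5:**
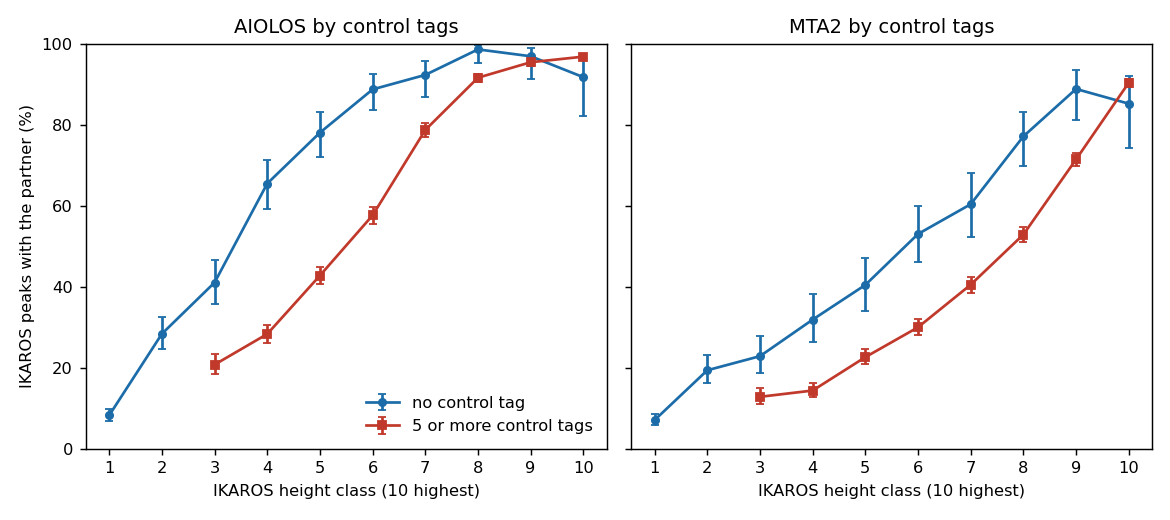
Share of IKAROS peaks overlapping AIOLOS (left) and MTA2 (right) by class of IKAROS height, for peaks with no control tag (blue) and with at least 5 (red), with Wilson 95% intervals; no peak of classes 1 and 2 had 5 control tags. In class 5 AIOLOS stands at 78.1% against 42.8% and MTA2 at 40.5% against 22.6%.

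The partner lists were called over input as well. The sources used here do not say whether the 1 deposited input served every list, and the HDAC2 list was made with an input of another size. The part of the input in the differences by control tags was not tested.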

How the data were processed

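ChIP-seq peak lists of 7 antibodies in 697 cells were used as deposited, 1 library each. CASAVA 1.8.2, Bowtie2 2.3.2.2 and HOMER 4.9.1 had been used on hg19, per the submitters' processing notes. For the IKAROS list the findPeaks settings were not given in the sources used here. The authors' deposited height is a signal, tags per 10 M of the library. The deposited total is a signal too, the peak's tags at the input's depth. The deposited control signal is the unscaled input tag number. For partner lists the deposited tag count is a whole number in most lists. The deposited focus ratio is a fraction, the deposited findPeaks Score is HOMER's score, the deposited fold columns are ratios to input, to the surroundings and to distinct positions, and the deposited p-values are HOMER's. These values are the authors' and describe peaks within a list.

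Tag numbers were recovered from the height steps: below a height of 100, 100% were whole within 0.15 tags. Peaks were put in 10 equal classes by height, ties broken by chromosome name and start. Partners overlapped by at least 1 bp, and distances ran between centres on 1 chromosome. Shares have Wilson intervals, differences of shares Newcombe intervals and medians order-statistic intervals, all 95%. The work used numpy 2.4.6, scipy 1.17.1, pandas 2.3.3 and matplotlib 3.10.9 under Python 3.11.15, and the code was tested on simulated data. Alternatives changed the overlap rule, the ranking, the partner list length, the fold and p-value limits, the chromosomes and the window.

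Named regions are the 10 highest peaks, the 3 with the most control tags, the 3 clusters with the most peaks, the 3 highest with no partner, the 3 highest (outside the 10) and 3 lowest with all 6, the 3 least focused in the highest 1%, and the 3 whose score and height ranks differ most; the 3 lowest peaks are described by their shared height alone. The members, classes and rules were chosen with earlier results of these data known. Left out were gene assignment, motifs and sequences, since no genome or annotation of hg19 was at hand.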

Additional observations from a re-analysis of the deposited data

How the results depend on the processing

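Of 60 alternative values for 10 results, 24 stayed within the counting interval of the reported value and 36 moved beyond it. None of the partner differences between classes 10 and 1 changed direction. The other results are shares and medians, which have no direction to change. In points between height classes 10 and 1, centres within 100 bp in place of overlap gave 87.3 for AIOLOS, 75.7 for MTA2, 13.7 for Mi2, 50.5 for HDAC2, 33.9 for OCT2 and 11.96 for OCAB. The 4000 highest peaks of each partner list gave 66.2, 44.7, 19.8, 41.7 and 33.3 for the first 5, with fewer partner peaks to meet. Ranking by fold over input gave 63.3, 61.1, 21.0, 46.5, 34.5 and 13.3, and a median of 2 control tags in class 10, since that ranking divides by control tags. At least 8-fold over input in all lists gave 89.5, 72.1, 10.8, 34.0, 26.6 and 10.8, and a p-value over input of at most 1e-10 in all lists gave 87.2 for AIOLOS, 45.7 for HDAC2 and 40.5 for OCT2. Over 1.5 times smaller were Mi2 by centres, MTA2 and HDAC2 with the 4000 highest peaks, and Mi2, HDAC2, OCT2 and OCAB under the 8-fold limit. These limits also remove partner peaks, and the cause was not tested further.

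The share of tags in the highest 1% was 10.8% by score, 10.8% under the p-value limit, 10.6% under the 8-fold limit, 10.3% on chromosomes 1 to 22 and X, and 9.80% without the 1% of peaks with the most control tags. The share with a neighbour within 10 kb was 55.5% under the p-value limit and 49.5% under the 8-fold limit, which leave fewer peaks. The window itself gave 34.3% at 5 kb and 79.6% at 25 kb. No paired analysis was possible because each antibody had 1 library, and no library could be left out. The input, with a median of 3 tags per peak, limits every fold over input.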

Other observations

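Chromosomes 1 to 22 and X, to which the values here are limited, differed in their IKAROS peaks. Density ran from 8.55 peaks per Mb on chromosome X and 11.4 on chromosome 4 to 36.3 on chromosome 22 and 39.3 on chromosome 19. Chromosome 19 also had the highest median height of these chromosomes, 25.7, and 1.69% of its peaks were in the highest 1%. Chromosome X had the lowest median height among them, 14.1, with 1.96 control tags per peak on average and no control tag under 21.7% of its peaks. On chromosomes 1 to 22 the mean control tag number ran from 3.19 to 4.43. The number of copies of each chromosome in 697 cells was not measured here.

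The ends of a chromosome were taken as the outermost peaks on it over all lists together. Of the 53854 IKAROS peaks on chromosomes 1 to 22 and X, 5.81% (5.62 to 6.01) lay within 2 Mb of an end. Of the 532 among them that belong to the highest 1% of the list, 8.08% (6.06 to 10.7) did. The interval of the second excludes the first by a small margin.

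Clustered and single peaks of like height class differed in their partners. In classes 6 to 10 for MTA2 and 6 to 9 for AIOLOS the share was lower in clustered peaks, with intervals of the difference that exclude 0. In class 9, MTA2 overlapped 72.7% of peaks with a neighbour within 10 kb and 81.5% of single peaks, a difference of -8.75 points (-11.0 to -6.43). For AIOLOS in class 7 the shares were 83.1% and 89.6% (-6.53 points, -8.34 to -4.66). In class 1 MTA2 went the other way, with 10.2% of clustered and 6.70% of single peaks (3.48 points, 1.93 to 5.10). The share was also higher in clustered peaks for MTA2 in class 3 (2.46 points, 0.425 to 4.48) and, by an interval that barely excludes 0, for AIOLOS in class 2 (2.22 points, 0.0481 to 4.42). Median local fold was lower in clustered peaks in every class, 13.3 against 26.1 in class 9, and its part in these differences was not tested.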
